A study of Rattus norvegicus with 16 samples.

Results

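The genes described here build the tight junctions and desmosomes of epithelial cells, and their transcripts were followed in rat PCCl3 thyroid cells after silencing of *Pax8*. The group holds 9 genes: the desmosomal cadherins *Dsg1b* and *Dsg2*, plakoglobin (*Jup*), the claudins *Cldn1*, *Cldn3*, *Cldn4* and *Cldn7*, occludin (*Ocln*) and the junctional adhesion molecule *F11r*. The members were chosen by their symbols and with the array results known, since *Dsg1b* had passed the threshold in opposite directions in the 2 comparisons. The log2 ratios of these genes are therefore given as a description, without a test. Probes named on the arrays represent 9136 genes, among them 8 of these 9, and 12 of the 41012 probes measured belong to them, whereas no probe could be tied to *Dsg2* by name. Both *Dsg1b* probes carry an accession that the RefSeq table used here does not hold, so that their name rests on the probe list supplied with the study alone. That list holds probes the study called significant in these arrays. Binding of a near-identical desmoglein transcript to the *Dsg1b* probes was not examined.

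PCCl3 is a line of differentiated follicular cells from the rat thyroid, kept in medium with thyrotropin and insulin. RNA of cells given an siRNA against *Pax8* (si*Pax8* cells, 10 ng/ml, collected after 48 hours) competed on Agilent rat whole genome arrays with RNA of wild type cells (wt) or of cells given a scrambled siRNA (siScramble). Each comparison had 4 replicates, and every replicate was hybridized once with si*Pax8* RNA in Cy5 and once in Cy3, which makes 16 arrays. The labels call the first of these controls wild type, the study's methods list it as cells treated with lipofectamine, and its design scheme gives the same si*Pax8* samples for both comparisons. The labels and the design scheme call the replicates biological, without saying what made them separate, and SDs and p-values measure the spread between these samples only.

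Tight junctions close the space between neighbouring epithelial cells. Claudins form the barrier and its pores, occludin and *F11r* are membrane partners, and plaque proteins tie them to actin. Desmosomes hold the cells together mechanically: desmogleins and desmocollins bridge the gap between cells, and plakoglobin and desmoplakin connect them to the keratin filaments. In the thyroid follicle these junctions separate the lumen, where thyroglobulin is stored and iodinated, from the blood side of the cell. Pax8 is a paired box transcription factor needed for the formation and the differentiated function of follicular cells.

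Promoter stretches are shown for *Ocln* and *Jup*, the members above background on every array whose mean ratios had the same sign in both comparisons. They are the 250 bases before the annotated start in RefSeq (GRCr8), both on the minus strand, written 5′ to 3′, at chr2:33441199-33441448 for *Ocln* and at chr10:85827430-85827679 for *Jup*. Capitals mark the E-box CACCTG or, as it reads on the other strand, CAGGTG, the letters bound by the Snail and ZEB repressors of epithelial genes.
Ocln: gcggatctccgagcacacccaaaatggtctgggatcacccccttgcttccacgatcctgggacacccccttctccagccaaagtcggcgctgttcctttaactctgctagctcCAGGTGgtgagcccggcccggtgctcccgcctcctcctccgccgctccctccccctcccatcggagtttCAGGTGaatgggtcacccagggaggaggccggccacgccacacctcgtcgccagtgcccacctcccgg
Jup: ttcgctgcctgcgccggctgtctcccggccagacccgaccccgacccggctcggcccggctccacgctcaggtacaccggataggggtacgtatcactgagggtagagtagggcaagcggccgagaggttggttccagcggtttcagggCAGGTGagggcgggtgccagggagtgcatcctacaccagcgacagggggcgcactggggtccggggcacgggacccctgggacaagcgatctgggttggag
The *Ocln* stretch holds the E-box at 2 places, with first letters 137 and 68 bases before the start, and the *Jup* stretch at 1 place, 101 bases before it. Of the members, 7 have an entry in the promoter table, and 6 of these entries hold the E-box on either strand, which 15.9% of all 33469 promoter stretches of this length do. The GC box GGGCGG, or CCGCCC on the other strand, is found in 6 of the 7 and in 30.5% of all stretches, and the *Ocln* stretch has none. No E-box overlaps a GC box in these 7 entries. These are matches of letters in a short window. The arrays were designed on an earlier assembly, and nothing on these arrays measures binding.

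Silencing of the transcript was read from the *Pax8* probe A_43_P12538 (NM_031141). For the protein, the study reports an immunoblot with less Pax8 in si*Pax8* cells than in untransfected and in siScramble cells. The study chose the collection time by this blot and took the RNA from additional transfections. The arrays do not measure protein. By the dye labels, negative log2 ratios mean less transcript after silencing, whereas the study's text words its numbers of up- and down-regulated probes the other way round. *Pax8* was lower than in wt cells by -0.84, -0.57, -0.59 and -0.26 in replicates 1 to 4, a mean of -0.56 ± 0.24 (SD, n = 4; limma adjusted p = 0.000496), or 67.6% of the wt level. Without replicate 3 this fall was short of the threshold of 0.005 (limma adjusted p = 0.00576), as it was over the Cy3 orientation by itself (-0.47, limma adjusted p = 0.0185) and with Agilent's processed signals (-0.58, limma adjusted p = 0.0386). Against siScramble cells the values were -0.58, -0.29, -0.12 and -0.01, a mean of -0.25 ± 0.25 (SD, n = 4; limma adjusted p = 0.147), which did not pass. Of 12 follicular cell markers, 11 exceeded background in the si*Pax8* channel of all 16 arrays and *Iyd*, an iodotyrosine deiodinase, on 15. Their levels moved with the conditions: 9, the silenced *Pax8* among them, were lower and 1 higher than in wt cells, and 1 was lower than in siScramble cells. Of all named genes 11.2% were lower and 9.74% higher than in wt cells, and 1.8% lower than in siScramble cells. The medians of the 12 markers were -0.55 and -0.16, and their part in the junction gene values was not tested. Among the 15 markers of fibroblasts, C cells, endothelium and leukocytes with a probe, 8 were never above background, and *Cd68*, with 0.30 against wt cells, was the one that passed the threshold in either comparison.

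*Dsg1b* encodes a desmoglein, a cadherin of the desmosome. Its brighter probe, A_43_P23375 (XM_214616), gave log2 ratios of si*Pax8* over wt cells of 0.61, 0.68, 0.71 and 0.68 in replicates 1 to 4, a mean of 0.67 ± 0.05 (SD, n = 4), or 1.59 times the wt level. Against siScramble cells the same probe gave -0.58, -0.53, -0.73 and -0.84, a mean of -0.67 ± 0.14 (SD, n = 4), or 62.9% of the siScramble level. All replicates were above wt and all were below siScramble cells, so that the 2 sets of ratios do not overlap. *Dsg1b* was chosen for these opposite directions, with which 18 of all 41012 probes (0.0439%) passed in both comparisons. The dimmer probe, A_44_P730788, with the same accession, gave 0.10, 0.24, 0.40 and 0.33 against wt cells (mean 0.27 ± 0.13, SD, n = 4). Against siScramble cells it gave -0.29, -0.31, -0.44 and -0.44 (mean -0.37 ± 0.08, SD, n = 4). Both probes thus had the same order of conditions, with ratios nearer to 0 for the dimmer one. The offset of 50 added to all intensities pulls ratios of dim probes toward 0, and its part in the gap between these 2 probes was not tested.

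The intensities of the separate channels show the same order on a level scale. On the arrays against wt cells the brighter *Dsg1b* probe had log2 intensities of 8.15, 8.12, 8.17 and 8.08 in wt cells and of 8.81, 8.87, 8.96 and 8.83 in si*Pax8* cells. On the arrays against siScramble cells it had 8.89, 8.82, 8.91 and 8.87 in si*Pax8* cells and 9.48, 9.29, 9.51 and 9.65 in siScramble cells. The si*Pax8* means were 8.87 ± 0.07 and 8.87 ± 0.04 (SD, n = 4 each) on the 2 sets of arrays, between 8.13 ± 0.04 in wt and 9.48 ± 0.15 in siScramble cells. The dimmer probe had means of 6.76 ± 0.08 in wt, 7.07 ± 0.08 and 7.16 ± 0.11 in si*Pax8*, and 7.47 ± 0.09 in siScramble cells (SD, n = 4 each). With either probe the lowest siScramble value lay above the highest si*Pax8* value, and the highest wt value below the lowest si*Pax8* value. *Dsg1b* was chosen on these arrays, and the share of all probes with such a separation was not counted.

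**Figure D1:**
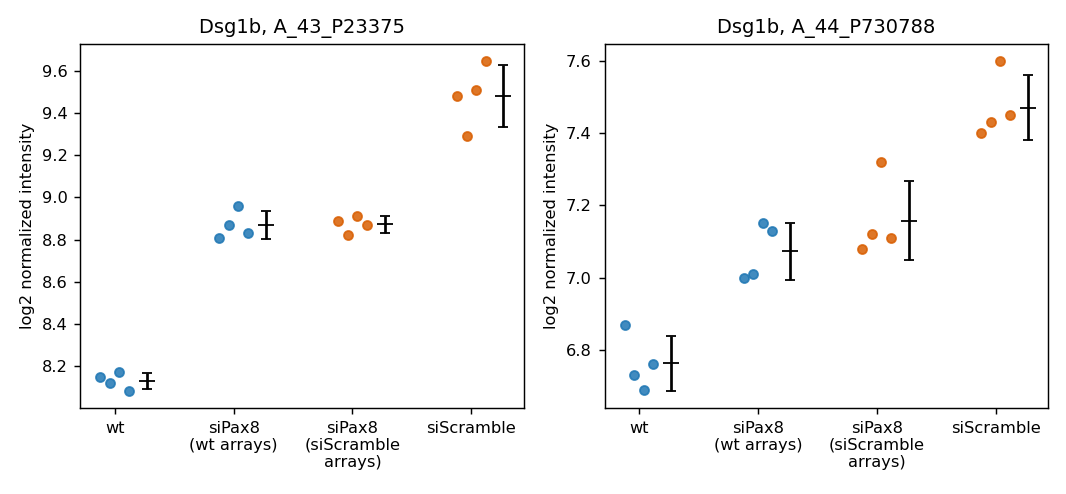
Log2 normalized intensity of the 2 *Dsg1b* probes in wt, si*Pax8* and siScramble cells, with si*Pax8* cells shown for each set of arrays. Points are replicates 1 to 4 from left to right, each the mean of its 2 dye orientations, and bars are the mean ± SD. The axes do not start at 0. For the brighter probe the si*Pax8* means of 8.87 and 8.87 lie between 8.13 in wt and 9.48 in siScramble cells.

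Since si*Pax8* cells are common to both comparisons, the ratios can be subtracted to set siScramble against wt cells indirectly. For the brighter *Dsg1b* probe the difference was 1.34 on the log2 scale, that is 2.53 times the wt level in siScramble cells, and the replicate numbers gave 1.18, 1.21, 1.45 and 1.52. For the dimmer probe it was 0.63. Of the 41012 probes, 24 had a larger difference in size than 1.34, 20 of them with the same sign. Cells with a non-targeting siRNA had thus more *Dsg1b* signal than either other condition, and no array compared them with wt cells directly. These values chose *Dsg1b* and carry no test.

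The *Dsg1b* ratios moved with the dye. With si*Pax8* in Cy5 the brighter probe gave 0.38, 0.47, 0.57 and 0.59 against wt cells, while in Cy3 it gave 0.83, 0.90, 0.86 and 0.77. Against siScramble cells it gave -0.81, -0.91, -1.03 and -1.19 in Cy5 and -0.34, -0.15, -0.44 and -0.49 in Cy3. The mean against siScramble cells was therefore -0.99 in one orientation and -0.35 in the other, and the mean against wt cells 0.50 and 0.84. The offset had the same sign in both comparisons, whereas the sign of the ratio did not change with the dye on any of the 16 arrays. Each of the 4 slides carried 2 arrays per comparison, and by slide the mean ratio lay between 0.58 and 0.73 against wt and between -0.77 and -0.59 against siScramble cells. Replicate 4 against siScramble cells had the lowest *Dsg1b* ratio of the 4 (-0.84) and the *Pax8* ratio nearest to 0 (-0.01, with 0.11 in Cy5 and -0.12 in Cy3). Against wt cells replicate 4 also had the *Pax8* ratio nearest to 0 (-0.26), with a *Dsg1b* ratio of 0.68. A relation between the 2 genes over replicates was not tested.

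**Figure D2:**
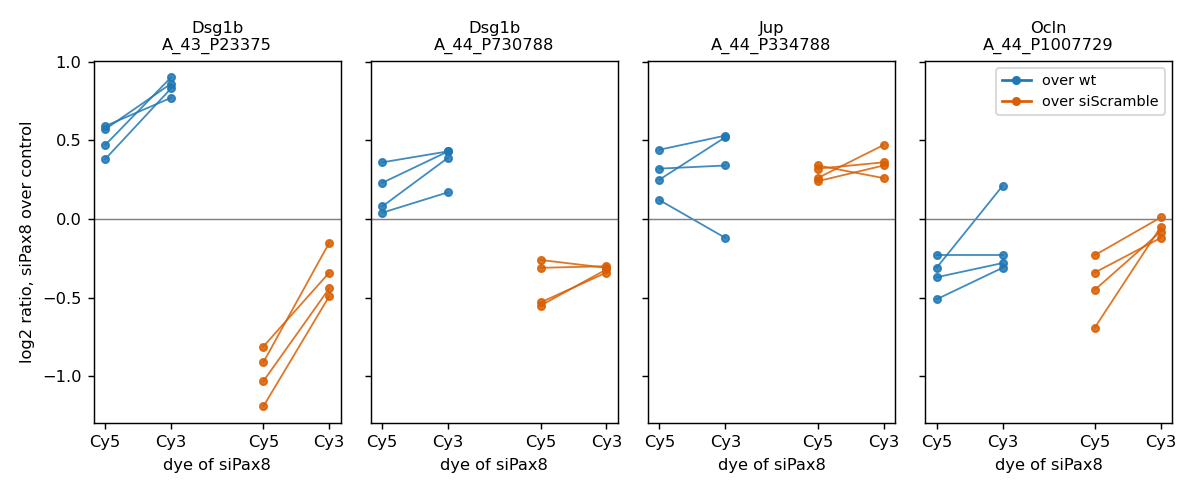
Log2 ratio of si*Pax8* over control on each array for both *Dsg1b* probes, *Jup* and the brighter *Ocln* probe, with si*Pax8* RNA in Cy5 or Cy3. Lines join the 2 arrays of a replicate, in blue against wt and in orange against siScramble cells. *Dsg1b* keeps its sign in both orientations, and the brighter *Ocln* probe has means of -0.43 in Cy5 and -0.06 in Cy3 against siScramble cells.

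Plakoglobin, encoded by *Jup*, is shared by desmosomes and adherens junctions. Its probe A_44_P334788 (NM_031047) gave 0.00, 0.39, 0.48 and 0.33 against wt cells (mean 0.30 ± 0.21, SD, n = 4) and 0.29, 0.37, 0.34 and 0.30 against siScramble cells (mean 0.32 ± 0.04, SD, n = 4). The level in si*Pax8* cells was 1.23 times that in wt and 1.25 times that in siScramble cells. Replicate 1 against wt cells was the exception, with 0.12 in Cy5 and -0.12 in Cy3, and the other 14 arrays were all above 0. The probe was well above background in both channels of all arrays. *Dsg1b* and *Jup* proteins meet in the desmosome, and against siScramble cells their ratios had opposite signs in all 4 replicates.

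Occludin, a membrane protein of the tight junction, was measured by 2 probes for NM_031329. The brighter, A_44_P1007729, gave -0.05, -0.23, -0.32 and -0.41 against wt cells (mean -0.25 ± 0.16, SD, n = 4) and -0.11, -0.23, -0.27 and -0.37 against siScramble cells (mean -0.24 ± 0.11, SD, n = 4). The dimmer, A_43_P12552, gave -0.29, -0.16, -0.24 and -0.18 (mean -0.22 ± 0.06, SD, n = 4) and -0.25, -0.16, -0.36 and -0.35 (mean -0.28 ± 0.09, SD, n = 4). All 16 replicate values were below 0, and the level in si*Pax8* cells was between 82.3% and 86% of the control. These values are not 16 separate observations, since 2 probes and 2 comparisons share the same si*Pax8* samples. Between siScramble and wt cells there was an indirect difference of -0.01 for the brighter and 0.06 for the dimmer probe. Replicate 1 of the brighter probe was above 0 in Cy3, with 0.21 against wt and 0.01 against siScramble cells. Both probes depended on the dye, the brighter with -0.36 in Cy5 and -0.15 in Cy3 against wt cells. Against siScramble cells the 2 orientations gave -0.43 and -0.06. The dimmer probe had -0.28 and -0.16 against wt and -0.40 and -0.16 against siScramble cells.

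*F11r*, which encodes junctional adhesion molecule A, had small ratios. Its probe A_44_P482595 (NM_053796) gave -0.11, -0.02, -0.19 and -0.16 against wt cells (mean -0.12 ± 0.07, SD, n = 4) and 0.10, 0.02, 0.10 and 0.05 against siScramble cells (mean 0.07 ± 0.04, SD, n = 4). With the dyes averaged, all replicates were below wt and above siScramble cells, the opposite order to that of *Dsg1b*. The share of all probes with such an order by sign alone was not counted. The median SD between replicates over all probes was 0.0632 against wt and 0.0603 against siScramble cells. The sign against siScramble cells turned with the dye, from 0.18 in Cy5 to -0.05 in Cy3.

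The claudins were dim on these arrays. *Cldn3* (A_44_P376862, NM_031700) and the brighter *Cldn4* probe (A_44_P299550, NM_001012022) were above background on every array, with ratios of -0.03 ± 0.05 and 0.02 ± 0.12 against wt and of 0.05 ± 0.04 and -0.07 ± 0.10 against siScramble cells (SD, n = 4 each). Both genes encode claudins that tighten the paracellular space, and their replicate values lay between -0.17 and 0.11. Neither *Cldn1* probe (A_43_P12641 and A_44_P285463, NM_031699) and not the other *Cldn4* probe (A_44_P975437) was well above background on any array, and *Cldn7* (A_44_P1010902, NM_031702) was so on 1 of 8 arrays of each comparison. For these genes the arrays give no level, and a change of *Cldn1* or *Cldn7* was not detectable.

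**Figure D3:**
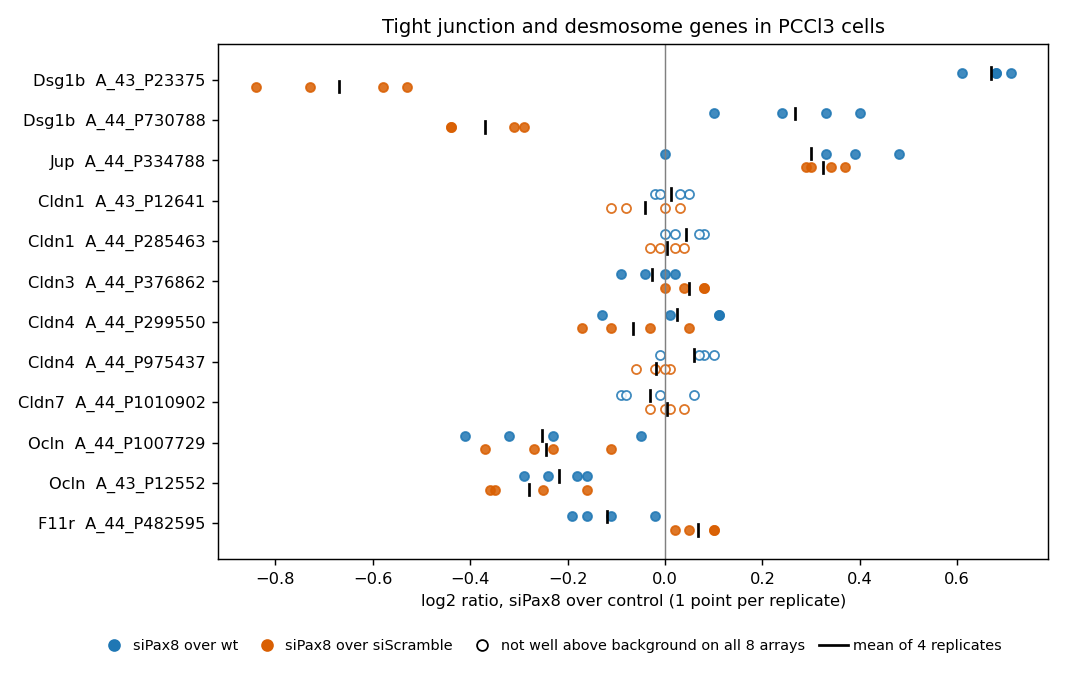
Log2 ratio of si*Pax8* over wt (blue) and over siScramble cells (orange) for the 12 probes of the 8 genes measured. Points are the 4 replicates, vertical lines their means, and open points mark probes that were not well above background on all 8 arrays of the comparison. *Dsg1b* lies on opposite sides of 0 in the 2 comparisons, *Jup* on the right and *Ocln* on the left in both, and the claudins lie near 0.

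Across the group, 8 of 12 probes, from 6 genes, were above background in both channels of all arrays. At the adjusted p threshold of 0.005 the fit over all probes called 2 of the 12 higher than wt cells, both of *Dsg1b*, where 7% of all probes were called higher. It called 1 lower, the dimmer *Ocln* probe, where 8.19% of all probes were. Against siScramble cells 1 was called higher (*Jup*; 1.18% of all probes) and 2 lower (both of *Dsg1b*; 0.849%). *Jup* and the brighter *Ocln* probe, with mean ratios of 0.30 and -0.25, were not called against wt cells. In all, 18 probes (0.0439%) passed in both comparisons with opposite directions, 11 of them above wt and below siScramble cells, among them both *Dsg1b* probes. These ratios chose the group, and the counts are given as a description. Both *Dsg1b* probes were named only by the study's list of significant probes. They could thus be counted only by having passed there, and their calls set beside the shares of all probes are no test. The median over the 8 genes, each by its brightest probe, was -0.01 against wt and -0.02 against siScramble cells, and that over all probes was 0 in both.

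The 5 named genes outside the lists whose 8 replicate ratios were nearest to those of the brighter *Dsg1b* probe, of 9041 compared, were *Atf3*, *Fos*, *Thrsp*, *Csrp3* and *Ppid*. The likeness was the root mean square difference over the 8 values, which was 0.31 for *Atf3*, 0.36 for *Fos*, 0.40 for *Thrsp*, 0.41 for *Csrp3* and 0.42 for *Ppid*. The dimmer *Dsg1b* probe differed by 0.36. *Atf3*, a stress-induced transcription factor, had means of 0.54 ± 0.09 against wt and -0.29 ± 0.08 against siScramble cells (SD, n = 4 each). *Fos*, a subunit of AP-1, had 0.86 ± 0.05 and -0.22 ± 0.03 (SD, n = 4 each), so that none of the 5 fell as far below siScramble cells as *Dsg1b* did. Probes without a name were not searched. An unnamed probe, A_44_P597305, had 0.50 against wt and -0.81 against siScramble cells.

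Other genes of the same junctions were followed in lists of 86 genes, of which 42 had a named probe and 24 exceeded background in the si*Pax8* channel of all 16 arrays. Each gene is represented by its brightest probe, and adjusted p-values are limma's over all 41012 probes. Against wt cells 6 of the 42 were higher and 6 lower, where 9.74% and 11.2% of all 9136 named genes were. *Grhl3*, among those lower, was named only by the study's list of significant probes and could be counted only by having passed there. Against siScramble cells 2 were higher and 2 lower, where 2.34% and 1.8% of all named genes were. The median ratio of the 42 was 0.01 and 0, beside 0 and 0 for all named genes. Without replicate 1 the number higher than wt cells was 10. Against siScramble cells it was 1 without replicate 2 or 3, and the number lower was 1 without any one of the 4 replicates. With Agilent's processed signals 5 of the 12 calls against wt cells remained, those of *Krt14*, *Pard3*, *Cldn9*, *Grhl3* and *Klf5*, and none of the 4 against siScramble cells. With slide as a block the calls of *Cldn9*, *Prkcz* and *Zeb2* against wt cells and of *Magi3*, *Krt14* and *Klf5* against siScramble cells were lost.

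In the plaque of the tight junction, *Magi3*, a scaffold with PDZ domains, was higher in si*Pax8* cells by 0.60 ± 0.09 against wt (adjusted p = 6.88e-06) and by 0.39 ± 0.07 against siScramble cells (SD, n = 4 each; adjusted p = 0.00123). The second call was lost without replicate 2 (adjusted p = 0.0144) or 3 (0.0118), and the ratio to siScramble cells was 0.58 in Cy5 alone (0.00542) and 0.21 in Cy3 alone (0.00269). The polarity protein *Pard3* rose by 0.26 ± 0.03 against wt cells (adjusted p = 0.000178) and had 0.03 ± 0.06 against siScramble cells. *Prkcz*, the atypical protein kinase C that acts with *Pard3*, fell by 0.20 against wt cells (SD 0.09, adjusted p = 0.00404), and had 0.02 ± 0.06 against siScramble cells. The fall was short of the threshold without replicate 1 (adjusted p = 0.00766), 3 (0.0309) or 4 (0.019). It depended on the dye, with -0.04 in Cy5 alone (adjusted p = 0.494) and -0.36 in Cy3 alone (0.00611), and was also lost with the replicate block over the 8 arrays (0.0152). The other *Prkcz* probe fell by 0.21 against wt cells (adjusted p = 0.00093). Of the 9 plaque and polarity genes with a probe, 2 rose and 1 fell against wt and 1 rose against siScramble cells. The shares among all named genes were 9.74%, 11.2% and 2.34%.

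Among the 7 other membrane proteins of the tight junction, *Crb3*, a polarity protein of the apical membrane, rose by 0.52 ± 0.13 against wt cells (adjusted p = 6.05e-05), and had 0.15 ± 0.16 against siScramble cells. The latter ratio turned with the dye, from -0.11 in Cy5 alone to 0.42 in Cy3 alone, where it passed (adjusted p = 3.91e-05). *Cxadr*, the adhesion receptor used by coxsackie and adenoviruses, rose by 0.31 ± 0.06 (adjusted p = 0.000153) and its other probe by 0.27 (adjusted p = 0.000529), with 0.00 ± 0.07 against siScramble cells. *Jam3*, a relative of *F11r*, fell by 0.35 against wt cells (SD 0.06, adjusted p = 7.56e-05) and had -0.15 ± 0.03 against siScramble cells (adjusted p = 0.0152), and the fall was short of the threshold in Cy3 alone (-0.24, adjusted p = 0.0122). None of these 7 genes passed against siScramble cells over both dyes, where 2.34% of all named genes were higher and 1.8% lower. Of the 9 further claudins, 3 exceeded background in the si*Pax8* channel of all arrays, and *Cldn9* alone passed, with a fall of 0.18 against wt cells (SD 0.05, adjusted p = 0.00273). Its call was lost without replicate 2 (adjusted p = 0.0171), 3 (0.0155) or 4 (0.0118) and with the replicate block over the 8 arrays (0.00677). The ratio was -0.05 in Cy5 alone (adjusted p = 0.449) and -0.30 in Cy3 alone (0.00165).

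Of the 14 further desmosome proteins listed, desmoplakin and the plakophilins among them, 2 had a named probe. *Dsc2*, a desmocollin and thus a partner of desmogleins, had 0.11 ± 0.18 against wt and -0.16 ± 0.09 against siScramble cells (SD, n = 4 each) and passed in neither (limma adjusted p = 0.266 and 0.0427). Its other probe had 0.06 and -0.16 (adjusted p = 0.487 and 0.0502). *Dsg4* was not above background on any array.

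Keratins are the filaments that desmosomes anchor. *Krt14*, a keratin of basal epithelial cells, rose by 1.01 ± 0.10 against wt (adjusted p = 4.81e-07) and by 0.51 ± 0.03 against siScramble cells (SD, n = 4 each; adjusted p = 0.000171), with replicate values from 0.87 to 1.09 and from 0.47 to 0.54. *Krt20*, a keratin of intestinal and other simple epithelia, fell by 0.30 against wt (SD 0.07, adjusted p = 0.000216) and by 0.78 against siScramble cells (SD 0.06, adjusted p = 9.3e-05). The remaining 6 keratins with a probe did not pass. The probes of the simple epithelial keratins *Krt8*, *Krt18* and *Krt19* were well above background in si*Pax8* cells on at most 1 array of a comparison.

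Of 7 transcription factors of epithelial junction genes, *Klf5* fell by 0.73 against wt (SD 0.07, adjusted p = 1.24e-06) and by 0.28 against siScramble cells (SD 0.03, adjusted p = 0.00171). The call against siScramble cells was lost without any one replicate, with adjusted p from 0.00545 to 0.0183, in Cy5 alone (-0.27, 0.0169) and with loess alone (-0.24, 0.00504), and the other *Klf5* probe, which is dimmer, passed in neither comparison (-0.18 and -0.04). *Grhl3*, a grainyhead factor of barrier genes, fell by 0.71 against wt cells (SD 0.04, adjusted p = 7.04e-07) and had -0.22 ± 0.08 against siScramble cells (adjusted p = 0.0126). Its probe was named only by the study's list of probes significant in these same arrays. *Grhl3* could thus be counted only by having passed there, and its call is given as a description. *Zeb2*, a repressor that binds the E-box marked above, rose by 0.26 ± 0.12 against wt cells (adjusted p = 0.00209) and had 0.23 ± 0.22 against siScramble cells (adjusted p = 0.129). The rise was lost without replicate 2 (adjusted p = 0.00865), 3 (0.00673) or 4 (0.00585), in Cy5 alone (0.15, adjusted p = 0.066) and with both comparisons in one fit (adjusted p = 0.016). *Snai1*, another such repressor, had 0.03 ± 0.01 and 0.06 ± 0.05 and passed in neither comparison by its brighter probe, and its dimmer probe passed against wt cells with 0.16 (adjusted p = 0.00479).

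**Figure D4:**
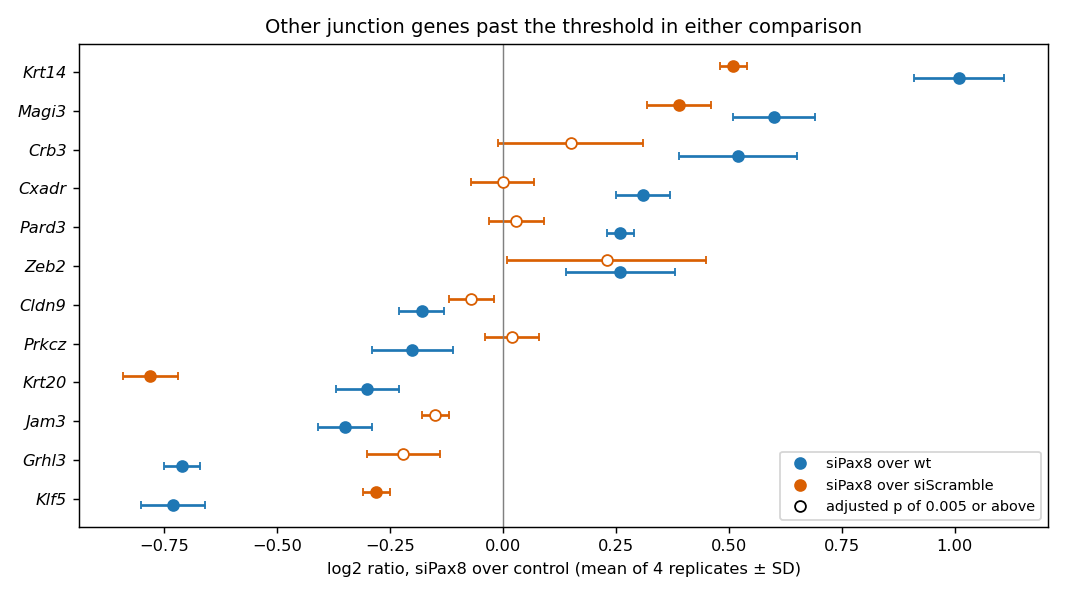
Mean log2 ratio ± SD (n = 4) of si*Pax8* over wt (blue) and over siScramble cells (orange) for the 12 other junction genes past the threshold in either comparison. Filled points have a limma adjusted p under 0.005. *Krt14* and *Magi3* are higher and *Krt20* and *Klf5* lower in both comparisons.

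The difference between the comparisons, which equals the indirect ratio of siScramble over wt cells, was tested for the 42 other junction genes by limma with the 8 averaged ratios as separate groups. The ratio to wt exceeded that to siScramble for 4 genes and fell below it for 2. Of all named genes 2.65% and 3.31% did so, and of all probes 1.6% and 1.75%. *Krt14* (0.50, adjusted p = 0.000156), *Krt20* (0.48, adjusted p = 0.000156), *Cxadr* (0.31, adjusted p = 0.0021) and *Pard3* (0.23, adjusted p = 0.00435) were the former, and *Grhl3* (-0.49, adjusted p = 0.000119) and *Klf5* (-0.46, adjusted p = 1e-04) the latter. *Grhl3* entered through the study's list of probes significant in these arrays, so its difference is given as a description. Without any one replicate number the first count was 2, since the calls of *Cxadr* (adjusted p from 0.00753 to 0.0259) and *Pard3* (from 0.0117 to 0.0498) were lost. With the replicate block, which pairs replicates of the same number, *Pard3* was lost (adjusted p = 0.00738) and *Crb3* passed (0.36, adjusted p = 0.000475, without the block 0.0189). The *Pax8* difference of -0.32 also passed with the block (limma adjusted p = 0.00194) and not without it (0.186). *Dsc2* had a difference of 0.27 that did not pass (adjusted p = 0.0625).

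Genes of the interferon response moved along the same conditions. Of the 18 listed genes with a probe, 14 were higher in si*Pax8* than in wt cells and 2 higher than in siScramble cells, with medians of 1.03 and 0.21, and for 11 the ratio to wt exceeded that to siScramble cells. Of all named genes 9.74%, 2.34% and 2.65% did so. The *Dsg1b* level, in contrast, was highest in siScramble cells. The part of transfection, and of the interferon genes, in the junction gene values was not tested.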

How the data were processed

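Expression was measured on 16 two-colour arrays of PCCl3 cells, and groups, dyes and replicate numbers were taken from the sample labels. The members and gene lists were chosen with earlier results of these data known. The authors deposited scanner intensities (mean spot signal and median background per dye, not normalized; 45018 spots per array, 1639 of them controls) and Agilent's log10 ratio of its processed red over green signals (Feature Extraction 10.1.1.1, per the file headers). The deposited normalized table holds log2 ratios of control over si*Pax8*, as its correlations with the ratios computed here, from -0.999 to -0.993, and SD ratios near 1 show. Its column medians ranged from -0.000112 to 0.0068. The submitters' processing notes name limma.

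Intensities were analysed with limma 3.58.1 in R 4.3.3: normexp with an offset of 50, loess within arrays with control and outlier spots (112 to 215 per array) at weight 0, and quantiles between arrays. Spots of a probe and the dye-swapped arrays of a replicate were averaged. Each comparison was fitted alone to 4 values per probe (lmFit, eBayes), with Benjamini-Hochberg adjustment over 41012 probes and the study's threshold of 0.005. The model was tested on simulated data. Between 52% and 60.8% of spots were well above background, and the number of arrays limits the precision. RefSeq accessions (GRCr8, names only) named 10768 probes, the study's probe list 341 more, and 29903 had no name. That list holds probes the study called significant in these same arrays. A probe without a RefSeq name was thus named only if it had passed there, and shares over named genes include such probes. Level plots use loess and quantiles of the average intensity.

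The genes named are all members, *Pax8*, junction-list genes past the threshold in either comparison (at most 20) and the 5 genes nearest to *Dsg1b*. *Dsc2*, *Snai1*, *Cd68*, *Iyd* and the genes not above background were named after their values were seen. Alternatives covered the signals, background, normalization, dye orientation, blocks, background filter, threshold and each replicate left out.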

Additional observations from a re-analysis of the deposited data

Results flagged for a closer look

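All 4 replicates of *Dsg1b* were above wt and below siScramble cells, by both probes, so that the ratios of the comparisons differed by 1.34 for the brighter and 0.63 for the dimmer probe. For *F11r* all replicates had the opposite order once the dyes were averaged, with a difference of -0.19. Its ratio to siScramble cells was 0.18 in Cy5 and -0.05 in Cy3. The share of all probes with such an order by sign alone was not counted. These differences between the comparisons were not tested, since the members were chosen on these ratios. Among the other junction genes the ratios to wt and to siScramble cells differed in limma for *Cxadr* (0.31), *Pard3* (0.23), *Krt14* (0.50), *Krt20* (0.48), *Grhl3* (-0.49) and *Klf5* (-0.46). Of these, *Grhl3* was named only by the study's list of significant probes.

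One replicate stood apart from the other 3 in 3 of 50 sets of 4 values, about as many as chance gives at 1 in 20. Against wt cells these were replicate 2 of *Cldn9* (-0.25), replicate 1 of *Jam3* (-0.44) and replicate 2 of *Klf5* (-0.84).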

How the results depend on the processing

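The *Dsg1b* ratio kept its sign in both comparisons under all 13 alternatives run for it. Against wt cells it was 0.90 with Agilent's processed signals, 0.74 with loess alone, 0.77 without background correction, 0.50 with si*Pax8* in Cy5 alone, 0.84 in Cy3 alone and 0.47 as the mean of both probes. Against siScramble cells it was -0.99 in Cy5 alone, -0.35 in Cy3 alone and -0.52 as the mean of both probes. With each replicate left out it ranged from 0.66 to 0.69 and from -0.72 to -0.61.

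The other junction genes higher and lower than wt cells numbered 2 and 3 with Agilent's processed signals in limma, and at a threshold of 0.05 there were 10 higher. Against siScramble cells none was higher or lower with Agilent's processed signals by limma (4 and 6 at an unadjusted p under 0.05). Those lower numbered 1 with loess alone, 1 in Cy5 alone, 1 where every probe of a gene had to pass, 1 with slide as a block and 5 at 0.05. Those higher numbered 1 in Cy5 alone, 6 in Cy3 alone and 0 with slide as a block (limma, 4 at an unadjusted p under 0.05). With each replicate left out the counts were 5 to 10 higher and 4 to 5 lower against wt, 1 to 2 higher and 1 lower against siScramble cells, and 2 and 2 for the difference. The cause of these shifts was not tested. Leaving out outlier spots, chosen after seeing the data, moved no count.

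Replicate numbers of the comparisons correlated in their deviations with 0.39, 0.17, 0.04 and 0.56, and replicate 3 correlated more with another number (0.40), so the fit without pairs was kept although both comparisons list si*Pax8* samples of the same numbers. With the replicate block the difference had 4 genes above, with *Crb3* in place of *Pard3*, and the same 2 below. In the fit of 8 arrays with the replicate block, 6 were higher and 5 lower against wt and 2 and 3 against siScramble cells. Low signal limits the claudins and simple keratins.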
